A study of Mus musculus with 6 samples.

Results

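The 8 genes described here are 6 enzymes of sterol synthesis (Hmgcs1, Idi1, Fdps, Fdft1, Sqle and Cyp51) and 2 regulators of the pathway (Insig1 and Srebf2). They were taken by gene symbol from the 23282 rows of the deposited count tables, each had 1 row, and all 8 were among the 12995 rows that passed the filter on low counts. The tables come from BAT of 3 wild-type (WT) and 3 Letmd1 KO male mice, all of strain C57BL/6N and 5 weeks of age, with no treatment named in the sources used here. The Letmd1 KO mice were homozygous for a null, knockout-first allele made from 1 embryonic stem cell clone, in which a lacZ and neomycin resistance cassette interrupts the gene in the whole body and not in brown adipocytes alone. QuantSeq libraries count the 3′ ends of mRNA, so counts do not grow with transcript length.

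Sterols are built from acetyl-CoA through mevalonate, isoprenoid diphosphates and squalene, which is closed to lanosterol and then trimmed to cholesterol in the endoplasmic reticulum. The pathway is known for its feedback: when membranes lack sterols, SCAP escorts the membrane-bound transcription factor SREBP-2 (encoded by Srebf2) to the Golgi, where it is cut and released to switch on the sterol enzymes. INSIG proteins hold SCAP back when sterols are plentiful, and Insig1 is itself a target of SREBPs. The related SREBP-1c is best known for driving fatty acid synthesis, which supplies lipid droplets.

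Depth was between 6669577 and 14574273 counts per mouse. Levels are given as CPM (read counts relative to library size) on libraries scaled with edgeR's TMM method, and a floor of 3 counts corresponded to between 0.176 and 0.397 CPM, for counting error only. The TMM factors ranged from 0.852 to 0.886 in WT mice and from 1.13 to 1.17 in Letmd1 KO mice, and without them the median over all genes tested moved from 0.033 to 0.45 on the log2 scale, so small changes are read against that shift. Letmd1 itself had 5658, 6490 and 5266 counts in the WT mice, against 0, 0 and 1 in the Letmd1 KO mice, which matched the labels. All 10 brown adipocyte markers were detected in both genotypes. The summed level of these markers was 42483 to 48431 CPM in WT BAT and 13510 to 17467 CPM in Letmd1 KO BAT, with 10 of 10 lower. Macrophage markers summed to between 194 and 276 CPM in WT BAT and between 1665 and 4162 CPM in Letmd1 KO BAT (13 of 13 higher), and fibroblast and matrix markers to between 2219 and 2942 against between 6103 and 10441 CPM (9 of 9 higher). Skeletal muscle markers were uneven within both genotypes, at 87.7, 527 and 100.005 CPM in WT mice and 482, 376 and 1373 CPM in Letmd1 KO mice (2 of 14 tested higher). Endothelial markers were lower for 3 of 9 genes and none of 6 tested erythroid markers was called, while 5 of 7 tested Schwann cell and nerve markers were higher, with Th and Prph at 0 in all mice. Over all genes tested, 22.3% were lower and 23.7% higher. The part of these cell types in the results below was not tested, and in bulk BAT fewer cells of a type and less RNA per cell cannot be told apart.

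SREBPs act through short promoter elements, so promoter windows of the members are shown before their values. RefSeq windows on GRCm38.p6, from 250 bases before to 50 bases after the start, matched 5 of the 8 members (Hmgcs1, Idi1, Cyp51, Insig1 and Srebf2), and there was no entry for Fdps, Fdft1 or Sqle. Both strands were searched for the core of the sterol regulatory element bound by SREBPs (TCACNCCAC, where N is any base, and the shorter CACCCCAC, which can overlap it), for CCAAT, known for NF-Y, and for GGGCGG, known for Sp1, factors that act beside SREBPs. The 3 windows shown belong to the matched members with the most negative fold changes, and capitals mark every match, read on the strand of the gene (ATTGG and CCGCCC are the opposite-strand forms). They lie at chr13:119690101-119690400 (plus strand, Hmgcs1), chr13:8885356-8885655 (plus strand, Idi1) and chr5:28071162-28071461 (plus strand, Insig1).
Hmgcs1: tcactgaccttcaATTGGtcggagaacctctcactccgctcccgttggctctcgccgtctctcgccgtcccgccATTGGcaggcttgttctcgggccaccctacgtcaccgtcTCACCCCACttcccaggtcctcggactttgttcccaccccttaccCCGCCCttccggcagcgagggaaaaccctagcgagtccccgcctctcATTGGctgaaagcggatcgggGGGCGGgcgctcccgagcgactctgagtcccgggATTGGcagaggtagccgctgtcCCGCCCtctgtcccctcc
Idi1: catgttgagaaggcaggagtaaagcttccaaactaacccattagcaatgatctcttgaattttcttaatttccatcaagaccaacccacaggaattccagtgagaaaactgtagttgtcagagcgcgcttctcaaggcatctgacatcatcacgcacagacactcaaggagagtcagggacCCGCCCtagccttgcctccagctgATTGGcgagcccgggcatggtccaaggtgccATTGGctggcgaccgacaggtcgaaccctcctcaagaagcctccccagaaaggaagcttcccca
Insig1: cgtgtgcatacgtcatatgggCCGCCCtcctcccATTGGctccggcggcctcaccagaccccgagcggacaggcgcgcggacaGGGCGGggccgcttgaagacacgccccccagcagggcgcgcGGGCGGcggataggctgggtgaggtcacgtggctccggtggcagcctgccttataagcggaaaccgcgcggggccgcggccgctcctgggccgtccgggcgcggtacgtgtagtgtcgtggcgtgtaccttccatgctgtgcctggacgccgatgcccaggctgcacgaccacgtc
Hmgcs1, the HMG-CoA synthase gene, was the only one of the 5 windows with a sterol regulatory element core. Its match to the 9-letter form begins 137 bases before the start and contains the 8-letter form. That 9-letter core occurs in 1.24% of all 32851 windows and the 8-letter core in 2.87%. All 5 windows held CCAAT, found in 37.4% of all windows, and GGGCGG, found in 35.7%. All 12 other sterol enzymes described here had at least 1 window, none with the 9-letter core and 1 (Acat2) with the 8-letter core, while 11 held CCAAT and 11 held GGGCGG. The absence of a match says only that these letters are not in these windows.

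**Figure D1:**
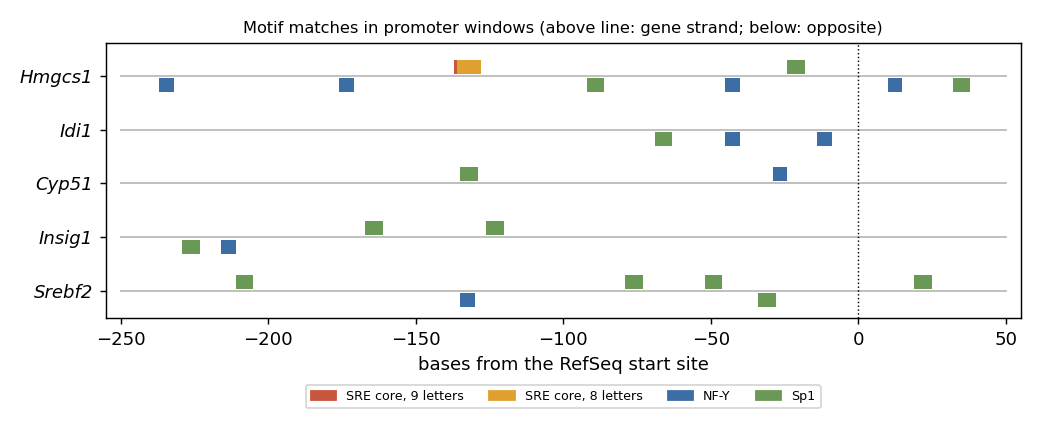
Motif matches in the 300-base promoter windows of Hmgcs1, Idi1, Cyp51, Insig1 and Srebf2, by distance in bases from the RefSeq start site (dotted line). Boxes above each line are matches on the strand of the gene and boxes below are on the opposite strand; only Hmgcs1 has the sterol regulatory element core, 137 bases before the start, while all 5 windows have at least 1 match for NF-Y and for Sp1.

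Of the 8 members, Fdft1 fell in Letmd1 KO BAT and the other 7 passed the test in neither direction. That is 1 of 8 lower and 0 of 8 higher, where 22.3% of all genes tested were lower and 23.7% were higher (edgeR's quasi-likelihood test, Benjamini-Hochberg adjusted p under 0.05). At an unadjusted p under 0.05 there were 4 members (Idi1, Fdps, Fdft1 and Insig1), all with lower means in Letmd1 KO BAT, and DESeq2 called 2 (Fdft1 and Idi1). The genotypes did not overlap for 2 of 8 members, Fdft1 and Fdps, where 57.3% of all genes tested did not overlap. The median log2 fold change of the members was -0.44, beside 0.033 for all genes tested.

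**Figure D2:**
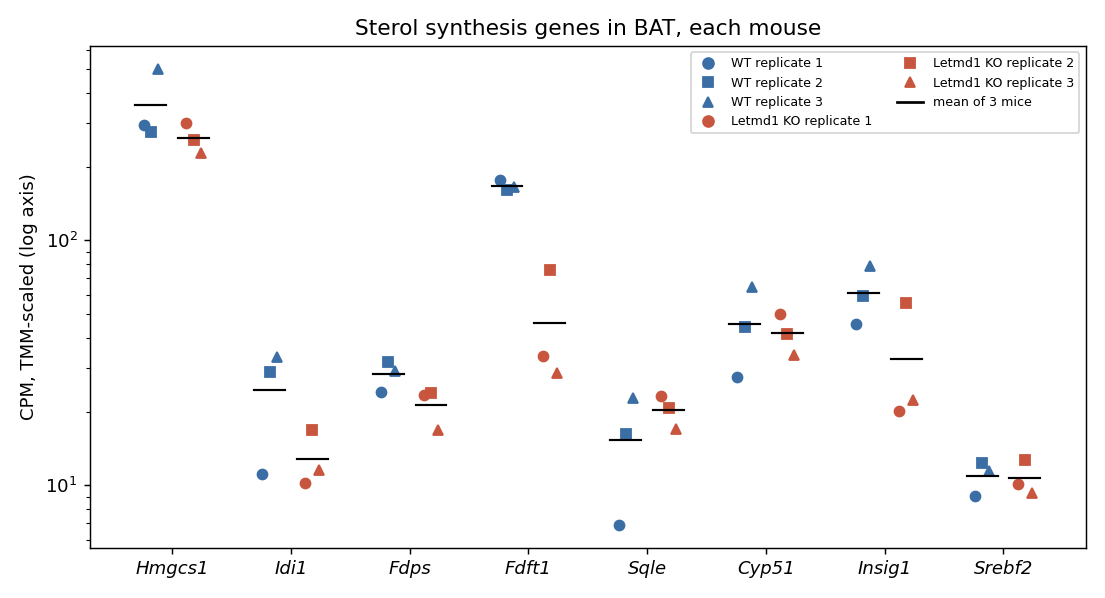
Level of each member in each mouse, in TMM-scaled CPM on a log axis, with WT mice in blue, Letmd1 KO mice in red, a marker shape for each replicate number and a line at the mean of 3 mice. Fdft1 is the member whose 3 WT values (160.1 to 177 CPM) stand clear of all Letmd1 KO values (28.6 to 75.4 CPM) by more than 2-fold, while the values of Srebf2 (9.06 to 12.7 CPM) are interleaved.

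The members that make the isoprenoid precursors come first. Hmgcs1 encodes the cytosolic HMG-CoA synthase, which joins acetoacetyl-CoA and acetyl-CoA (chr13:119690379-119708260, plus strand, GRCm38). Its level was 295, 276 and 502 CPM in the WT mice and 301, 256 and 228 CPM in the Letmd1 KO mice. WT replicate 3 stood above the other 5 mice, which lay within 228 to 301 CPM, so the genotypes overlapped. The log2 fold change was -0.45 (SE 0.22, 95% interval from -0.95 to 0.045, adjusted p = 0.123, edgeR). It was -0.026 with scaling by library size alone. Hmgcs1 shares 557 exon bases with Gm48342 and Idi1 shares 323 with Gm48574, both on the opposite strand and with no row of their own in the count tables.

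Idi1 encodes isopentenyl-diphosphate isomerase, which interconverts the 5-carbon building blocks (chr13:8885501-8892451, plus strand). It was at 11.1, 29.0 and 33.5 CPM in the WT mice and at 10.2, 16.8 and 11.6 CPM in the Letmd1 KO mice. WT replicate 1 was at the level of the Letmd1 KO mice, and both other WT mice were above all 3 of them. The log2 fold change was -0.94 (SE 0.37, 95% interval from -1.76 to -0.11) and did not pass the threshold with edgeR (adjusted p = 0.0622), whereas DESeq2 called it (adjusted p = 0.0177). Leaving out WT replicate 1 gave -1.30 (adjusted p = 0.00286, edgeR) and leaving out Letmd1 KO replicate 2 gave -1.16 (adjusted p = 0.0452, edgeR). Leaving out any of the other 4 mice gave values from -0.86 to -0.66 (adjusted p from 0.156 to 0.184, edgeR), and library size alone gave -0.52, none of them called. Idi1 was called in 5 of the 14 fits made. These included edgeR with no filter (-0.94, adjusted p = 0.0316) and with the replicate number as a block (-0.85, adjusted p = 0.0305).

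Fdps makes farnesyl diphosphate, the last precursor shared by sterols, ubiquinone side chains and protein prenylation (chr3:89093588-89101959, minus strand). It was at 24.1, 31.8 and 29.3 CPM in the WT mice and at 23.3, 23.8 and 16.8 CPM in the Letmd1 KO mice. The 2 groups were adjacent, separated by less than 1 CPM between WT replicate 1 and Letmd1 KO replicate 2. The log2 fold change was -0.42 (SE 0.18, 95% interval from -0.83 to -0.022, adjusted p = 0.0798, edgeR). Its last 500 bases are near identical to stretches of 6 other annotated genes, and those of Idi1 to 2. None of these other genes has a row of its own in the count tables. With multiple alignments counted, their reads may be among those of Fdps and Idi1, which was not tested.

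Fdft1 encodes squalene synthase, which joins 2 farnesyl diphosphates and commits them to sterols (chr14:63145150-63179578, minus strand). Its level was 177, 160.1 and 165 CPM in the WT mice and 33.6, 75.4 and 28.6 CPM in the Letmd1 KO mice. The WT mice were within 1.10-fold of each other, and all Letmd1 KO mice were below them, with Letmd1 KO replicate 2 the least reduced. The mean was 167 ± 8.48 CPM (SD, n = 3) in WT BAT and 45.9 ± 25.7 CPM (SD, n = 3) in Letmd1 KO BAT, a fold of 3.64, and the log2 fold change was -1.88 (SE 0.31, 95% interval from -2.58 to -1.18, adjusted p = 0.00112, edgeR). It was called in all 14 fits made, with log2 fold changes from -2.43 (without Letmd1 KO replicate 2) to -1.47 (library size alone).

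The 3′ end of Fdft1 limits this value. It shares 774 exon bases with Ctsb, the gene of the lysosomal protease cathepsin B on the opposite strand, including all of its last 500 bases, and whether strand was used in counting is not given in the sources used here, so reads of the 2 genes may not be told apart. Ctsb (named after its values were seen) was at 1159, 983 and 1161 CPM in the WT mice and at 525, 1083 and 470 CPM in the Letmd1 KO mice. Letmd1 KO replicate 2 was within the WT range, and the log2 fold change was -0.67 (adjusted p = 0.0796, edgeR), or -1.15 without that mouse (adjusted p = 0.000166, edgeR). For every 100 counts of Ctsb there were 15.2, 16.3 and 14.2 counts of Fdft1 in WT BAT, and 6.41, 6.97 and 6.10 counts in Letmd1 KO BAT. This ratio was lower in all 3 Letmd1 KO mice. Among Letmd1 KO mice it varied less than the level of either gene (highest to lowest 2.63 for Fdft1 and 2.30 for Ctsb), and among WT mice it varied more than Fdft1 did. The part of Ctsb reads in the Fdft1 counts was not tested.

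The members after squalene showed no called change. Sqle encodes squalene epoxidase, a rate-limiting oxygen-dependent step (chr15:59315077-59331192, plus strand). It was at 6.90, 16.2 and 22.7 CPM in the WT mice and at 23.2, 20.6 and 16.9 CPM in the Letmd1 KO mice. WT replicate 1 was below the other 5 mice, and the genotypes overlapped. Its log2 fold change was the only positive one among the members, at 0.41 (SE 0.35, 95% interval from -0.38 to 1.196, adjusted p = 0.367, edgeR).

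Cyp51 encodes lanosterol demethylase, the first step after ring closure (chr5:4081145-4104746, minus strand). It was at 27.7, 44.4 and 64.7 CPM in the WT mice and at 50.1, 41.4 and 34.0 CPM in the Letmd1 KO mice. The Letmd1 KO values all lay inside the WT range. The log2 fold change was -0.12 (SE 0.27, 95% interval from -0.74 to 0.49, adjusted p = 0.740, edgeR), and its sign turned with scaling by library size alone (0.30), without WT replicate 3 (0.20) and without Letmd1 KO replicate 3 (0.0094). Cyp51 shares 166 exon bases with Akap9 on the opposite strand.

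The regulators differed in their spread. Insig1, which retains SCAP in the endoplasmic reticulum (chr5:28071363-28078662, plus strand), was at 45.5, 59.3 and 78.9 CPM in the WT mice and at 20.1, 55.6 and 22.3 CPM in the Letmd1 KO mice. Letmd1 KO replicates 1 and 3 were below all WT mice, and Letmd1 KO replicate 2 was within the WT range. The log2 fold change was -0.92 (SE 0.37, 95% interval from -1.74 to -0.096, adjusted p = 0.0659, edgeR), and without Letmd1 KO replicate 2 it was -1.52 (adjusted p = 0.000895, edgeR). Leaving out any of the other 5 mice gave values from -1.10 to -0.67 (adjusted p from 0.0573 to 0.206, edgeR), library size alone gave -0.51 and DESeq2 -0.92 (adjusted p = 0.138), none of them called. Insig1 was called in 3 of the 14 fits made. These included edgeR with no filter (-0.93, adjusted p = 0.0302) and with the replicate number as a block (-1.03, adjusted p = 0.0231).

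Srebf2, the gene of SREBP-2, lies at chr15:82147181-82205379 on the plus strand. It was at 9.06, 12.3 and 11.5 CPM in the WT mice and at 10.1, 12.7 and 9.29 CPM in the Letmd1 KO mice. Its values were interleaved, and the log2 fold change was -0.040 (SE 0.21, 95% interval from -0.52 to 0.44, adjusted p = 0.892, edgeR). The sign turned with scaling by library size alone (0.38), and the interval allows a change of up to about 0.5 in either direction on the log2 scale. Its mRNA level does not measure the cut, active form of SREBP-2.

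Mouse-to-mouse variation was wide within WT BAT for several members. The highest WT level was 3.29 times the lowest for Sqle, 3.02 times for Idi1 and 2.33 times for Cyp51, against 1.10 times for Fdft1. The SD of log2 CPM among WT mice exceeded that of 95.5% of all genes tested for Sqle, 95.3% for Idi1 and 88.8% for Cyp51. WT replicate 1 had the lowest WT level for 6 of 8 members and WT replicate 3 the highest for 5 of 8, where over all genes tested those mice were lowest for 34.2% and highest for 37.3%. The 12 other sterol enzymes were ordered likewise, with WT replicate 1 lowest for 11 and WT replicate 3 highest for 9.

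Within Letmd1 KO BAT the wide members were others. The highest level was 2.76 times the lowest for Insig1 and 2.63 times for Fdft1, and the SD of log2 CPM exceeded that of 96.4% and 95.7% of all genes tested. Letmd1 KO replicate 2 had the highest level for 5 of 8 members and Letmd1 KO replicate 3 the lowest for 6 of 8, where over all genes tested those mice were highest for 38.5% and lowest for 31.8%. Letmd1 KO replicate 2 was also the mouse with the most macrophage marker RNA (4162 CPM), the highest sum of brown adipocyte markers (17467 CPM) and the most RNA of fatty acid synthesis genes (11416 CPM, against 3802 and 3538 CPM). That marker sum was carried by Fabp4 (12641 CPM, against 10216 and 8528 CPM). Adipoq, Plin1, Lipe and Elovl3 were also highest in Letmd1 KO replicate 2 among Letmd1 KO mice, and Otop1 was neither highest nor lowest there. Ucp1, the uncoupling protein of brown adipocytes, was lowest in the same mouse (255 CPM, against 415 and 476 CPM), as were Cidea, Plin5 and Kcnk3. Letmd1 KO replicate 3 had the most muscle marker RNA (1373 CPM), and their part was not tested. Without it and WT replicate 2, the mice with the most muscle RNA of their genotypes, 1 member was still called, and this alternative was chosen after the data were seen.

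**Figure D3:**
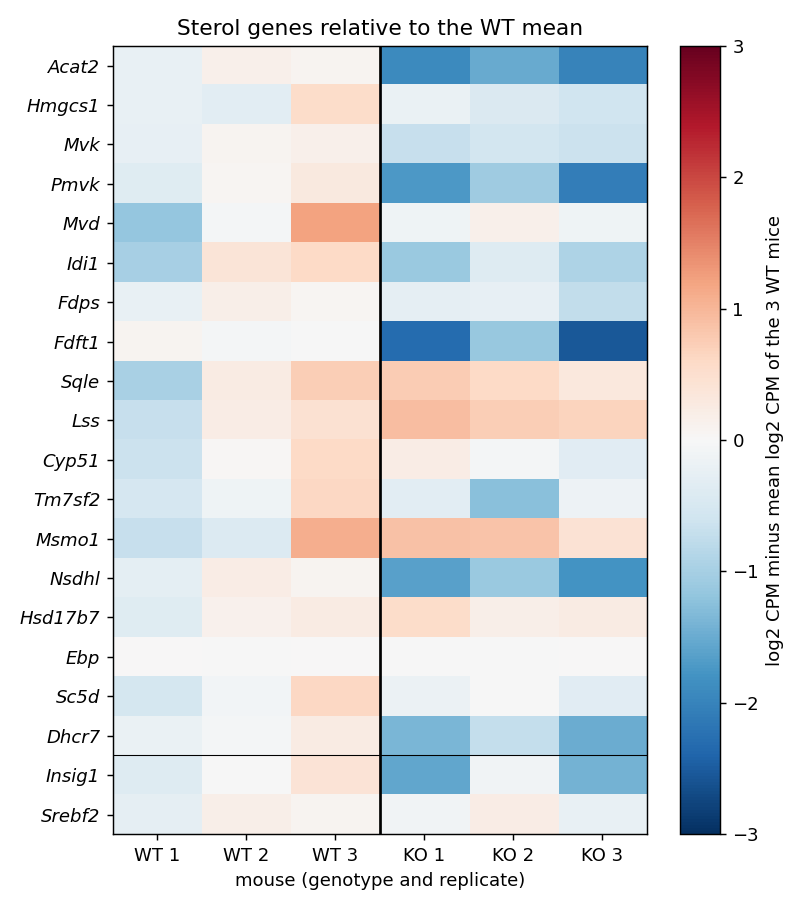
Log2 CPM of each sterol enzyme and of Insig1 and Srebf2 in each mouse, minus the mean log2 CPM of the 3 WT mice, on a color scale from -3 (blue) to 3 (red), with enzymes in order of reaction. WT replicate 1 is mostly blue and WT replicate 3 mostly red, and Ebp is near 0 in every mouse. Acat2, Pmvk, Fdft1, Nsdhl and Dhcr7 are at -0.716 or lower in all 3 Letmd1 KO mice. Hmgcs1, Mvk, Idi1, Fdps, Tm7sf2, Sc5d and Insig1 are also below 0 in all 3, by less in at least 1 of them.

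The rest of the pathway was described from a list of 12 further enzymes. Of these, 5 were lower and 1 was higher in Letmd1 KO BAT, 6 had no overlap between the genotypes, and the median log2 fold change was -0.43, where 22.3% of all genes tested were lower, 23.7% higher and 57.3% without overlap. With the 6 member enzymes, 6 of 18 enzymes were lower and 1 was higher, with a median of -0.44, beside the same 22.3% and 23.7% of all genes tested. Leaving out both mice with the most muscle RNA left 4 of the 12 called, all lower.

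At the entry of the pathway, Acat2, the cytosolic acetoacetyl-CoA thiolase, was at 360.1, 472 and 444.4 CPM in the WT mice and at 113, 149 and 105 CPM in the Letmd1 KO mice. It fell by 1.80 on the log2 scale (SE 0.16, adjusted p = 3.7e-05, edgeR), with no overlap. Its 3′ end is 98.6% identical to those of Acat3 and, on the opposite strand, Tcp1, 2 genes with smaller values (-0.30 and -0.32, adjusted p = 0.037 and 0.0267, edgeR, both named after their values were seen), so its reads may be shared with them. The call of Acat3 was lost in 5 of 6 fits that left out 1 mouse (all but the one without Letmd1 KO replicate 1) and that of Tcp1 in 4 (without replicate 2 or 3 of either genotype), with adjusted p of 0.101 and 0.0711 by edgeR without WT replicate 2.

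The kinases that activate mevalonate moved in the same direction. Pmvk, phosphomevalonate kinase, was at 69.1, 92.0 and 108 CPM in the WT mice and at 26.6, 41.8 and 21.1 CPM in the Letmd1 KO mice, and its log2 fold change was -1.60 (SE 0.25, adjusted p = 0.000849, edgeR). Mvk, mevalonate kinase, had a smaller change of -0.63 (SE 0.16, adjusted p = 0.011, edgeR), from 21.7 ± 3.18 to 14.0 ± 0.775 CPM (SD, n = 3). It was not called with scaling by library size alone (-0.22, adjusted p = 0.291, edgeR). Mvd, the decarboxylase that follows, ranged from 4.42 to 22.7 CPM among WT mice, the widest WT range of the 18 enzymes at 5.13 times, and changed by -0.33 on the log2 scale (adjusted p = 0.597, edgeR).

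Lss, lanosterol synthase, was the enzyme that rose. It was at 14.0, 26.5 and 31.0 CPM in the WT mice and at 42.7, 37.8 and 35.9 CPM in the Letmd1 KO mice, all above the WT mice, and its log2 fold change was 0.71 (SE 0.25, 95% interval from 0.14 to 1.27, adjusted p = 0.0439, edgeR). This call was lost in 5 of 6 fits that left out 1 mouse, with log2 fold changes from 0.43 (without WT replicate 1, adjusted p = 0.0649) to 0.78 (without WT replicate 2, adjusted p = 0.0696) by edgeR; it held without WT replicate 3. Lss shares 381 exon bases with an antisense gene, 4930483K19Rik, which was at 0 to 1.17 CPM.

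Among the enzymes that trim lanosterol, Nsdhl, a sterol dehydrogenase, had the most negative log2 fold change, at -1.51 (SE 0.20, adjusted p = 0.000336, edgeR). It was at 49.2, 70.0 and 64.1 CPM in the WT mice and at 19.6, 27.8 and 17.4 CPM in the Letmd1 KO mice, without overlap. Dhcr7, which reduces the precursor shared with vitamin D, was at 13.5, 14.8 and 18.4 CPM in the WT mice and at 5.93, 9.40 and 5.53 CPM in the Letmd1 KO mice, or -1.18 on the log2 scale (SE 0.25, adjusted p = 0.00419, edgeR). Both genes were called in every fit that left out 1 mouse.

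The other trimming enzymes described here were not called. Ebp, the sterol isomerase, was at 87.7, 86.3 and 87.2 CPM in the WT mice and at 86.7, 86.2 and 87.6 CPM in the Letmd1 KO mice. Under 1% of genes tested had a smaller WT spread than Ebp (0.669%). At 814, 814 and 669 WT counts, counting error alone allows a wider spread, so this closeness is not read as a trait of Ebp. Its log2 fold change was -0.0042 (95% interval from -0.21 to 0.21, adjusted p = 0.974, edgeR), which turned to 0.42 with scaling by library size alone (adjusted p = 0.0056, edgeR). Msmo1, the methyl sterol oxidase, was at 12.0, 14.4 and 40.9 CPM in the WT mice and at 35.5, 34.8 and 26.05 CPM in the Letmd1 KO mice. Its log2 fold change of 0.52 (adjusted p = 0.314, edgeR) became 1.27 without WT replicate 3 (adjusted p = 0.000918, edgeR). Hsd17b7 (0.30), Sc5d (-0.26) and Tm7sf2 (-0.54) also had intervals that included 0 on the log2 scale. Scaling by library size alone, which moves the median of all genes to 0.45, called Hsd17b7 (0.73, adjusted p = 0.0292, edgeR). Tm7sf2 shares 532 exon bases with Vps51 on the same strand.

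**Figure D4:**
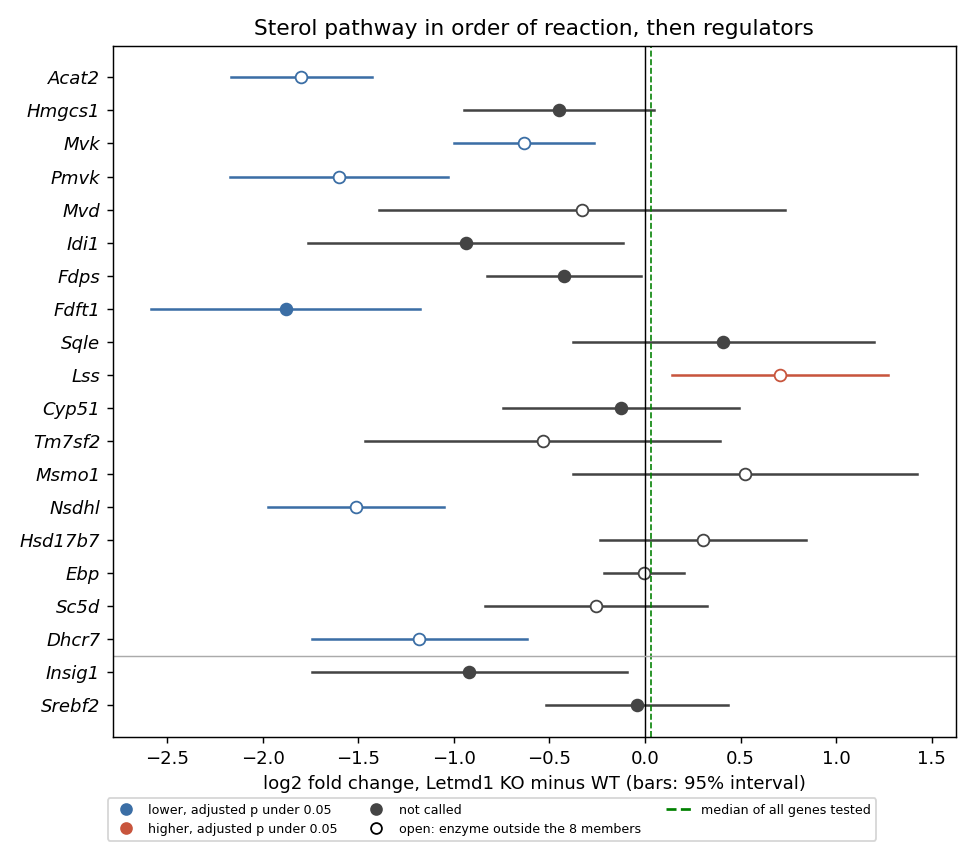
Log2 fold change (Letmd1 KO minus WT, 3 mice a genotype) of 18 sterol enzymes in order of reaction, then of Insig1 and Srebf2, with bars for the 95% interval from edgeR's quasi-likelihood fit, filled points for the 8 members and open points for the other enzymes. Blue points are lower and red points higher at an adjusted p under 0.05; 6 enzymes are lower, Lss is higher, and the green dashed line marks the median of all genes tested (0.033).

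The partners of Insig1 and Srebf2 in SREBP control come next. Of 13 genes of SREBP processing and sterol sensing, 2 were lower and 1 was higher, with a median log2 fold change of -0.22, where 22.3% of all genes tested were lower and 23.7% higher. With library size alone 5 were called, all higher, where 5899 of all 12995 genes tested were higher and 1368 lower in that fit. Scap, the escort of SREBPs, was at 44.1, 48.1 and 55.2 CPM in the WT mice and at 43.8, 38.5 and 44.8 CPM in the Letmd1 KO mice (log2 fold change -0.21, adjusted p = 0.221, edgeR). Insig2, the paralog of Insig1, was at 47.4, 47.9 and 37.7 CPM in the WT mice and at 30.5, 38.2 and 30.7 CPM in the Letmd1 KO mice. It overlapped between the genotypes and was called by a small margin (log2 fold change -0.42, adjusted p = 0.0443, edgeR), a call lost in 4 of 6 fits that left out 1 mouse (without WT replicate 1 or 2, or Letmd1 KO replicate 1 or 3, adjusted p from 0.114 to 0.139, edgeR). The gene that rose was Erlin1, whose product binds cholesterol in the endoplasmic reticulum and is known to restrain SREBP activation, from 7.76, 6.57 and 5.48 CPM to 31.2, 25.7 and 41.6 CPM (log2 fold change 2.31, SE 0.22, adjusted p = 4.87e-05, edgeR). Srebf1, the gene of SREBP-1, was at 126, 123.1 and 291 CPM in the WT mice and at 159, 148 and 144 CPM in the Letmd1 KO mice, and WT replicate 3 alone stood apart (log2 fold change -0.26, adjusted p = 0.502, edgeR; 0.26 without that mouse).

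Fatty acid synthesis genes, most of them known as SREBP-1 targets, were the list with the most negative median. Of 11 genes, 9 were lower and 2 were not called with edgeR, where 22.3% of all genes tested were lower and 23.7% higher. Their median log2 fold change was -2.87, beside -0.44 for the sterol members. Fasn, fatty acid synthase, was at 17689, 19448 and 21147 CPM in the WT mice and at 818, 3354 and 691 CPM in the Letmd1 KO mice (log2 fold change -3.58, SE 0.57, adjusted p = 0.000898, edgeR). Mlxipl, the gene of the carbohydrate-responsive factor ChREBP, was on this list as a regulator rather than an enzyme. It had the smallest called change at -2.27 (adjusted p = 1.09e-05, edgeR). As for Fdft1 and Insig1, Letmd1 KO replicate 2 had the highest Letmd1 KO level of Fasn. The difference between the lists was not tested.

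The branches that leave the pathway before squalene had a median near that of all genes. Of 9 tested genes for ubiquinone, dolichol and protein prenylation, 1 was lower and 2 were higher, with a median log2 fold change of 0.0051. Over all genes tested, 22.3% were lower and 23.7% higher. Fntb, the farnesyltransferase beta subunit, was at 13.04, 15.5 and 15.1 CPM in the WT mice and at 26.6, 19.1 and 23.8 CPM in the Letmd1 KO mice (0.67, adjusted p = 0.0101, edgeR). Icmt, which methylates prenylated proteins, fell by 0.50 on the log2 scale (adjusted p = 0.0462, edgeR), and its call was lost in 5 of 6 fits that left out 1 mouse (all but the one without Letmd1 KO replicate 2), with a value of -0.33 without Letmd1 KO replicate 1 (adjusted p = 0.124, edgeR). Idi2, a paralog of Idi1, was at 0 counts in all 6 mice.

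Genes that carry, store or export sterols had medians above that of the members. Of 10 transport genes, 1 was lower and 3 were higher (median log2 fold change 0.32), where 22.3% of all genes tested were lower and 23.7% higher. Npc1, which exports cholesterol from lysosomes, was at 109, 89.7 and 65.6 CPM in the WT mice and at 253, 219 and 305 CPM in the Letmd1 KO mice (1.55, adjusted p = 0.000212, edgeR). Its soluble partner Npc2 had the opposite sign, from 1011, 891 and 950.2 CPM to 443, 787 and 418 CPM (-0.79, adjusted p = 0.0177, edgeR). The call of Npc2 was lost without WT replicate 1 (adjusted p = 0.051), without Letmd1 KO replicate 1 (adjusted p = 0.0751) and without Letmd1 KO replicate 3 (adjusted p = 0.0559) by edgeR, and with quantile normalization and limma (adjusted p = 0.346).

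The list of efflux, storage and oxysterol genes held calls in both directions. Of 10 tested genes of efflux, esterification and oxysterols, 3 were lower and 4 were higher (median log2 fold change 0.24). Over all genes tested, 22.3% were lower and 23.7% higher. Soat2, a sterol esterifying enzyme, had at most 1 count in any WT mouse and was at 3.85, 2.38 and 4.23 CPM in the Letmd1 KO mice, at least 10.1-fold higher against the floor of 3 counts per library. Soat1, Nceh1 and Abcg1, named after their values were seen, were the other genes of the list that rose. Soat1, the ubiquitous esterifying enzyme, was at 1.401, 1.80 and 1.83 CPM in the WT mice and at 17.5, 42.7 and 10.4 CPM in the Letmd1 KO mice (log2 fold change 3.79, adjusted p = 0.000469, edgeR). Nceh1, a cholesterol ester hydrolase known from macrophages, had a log2 fold change of 3.85 and Abcg1, a sterol exporter, of 1.90 (adjusted p = 0.000126 and 0.00128, edgeR). In contrast, Nr1h3, the gene of the oxysterol receptor LXR alpha, was at 103, 92.6 and 100.3 CPM in the WT mice and at 53.2, 51.1 and 44.7 CPM in the Letmd1 KO mice (-0.99, adjusted p = 0.000127, edgeR). Abca1, another sterol exporter, and Nr1h2 were the other genes of the list that fell, both named after their values were seen. Their log2 fold changes were -0.62 and -0.56 (adjusted p = 0.00701 and 0.00378, edgeR). Soat1 and Abcg1 were highest in Letmd1 KO replicate 2, the mouse with the most macrophage marker RNA, whose part was not tested.

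Receptors that take up lipoproteins form the last list. Of 4 tested genes, 1 was lower and 1 was higher (median log2 fold change 0.10), where 22.3% of all genes tested were lower and 23.7% higher. Vldlr, the very low density lipoprotein receptor, was at 257, 263 and 256 CPM in the WT mice and at 106, 98.7 and 137 CPM in the Letmd1 KO mice (-1.18, SE 0.13, adjusted p = 0.000132, edgeR). Lrp1, a broad endocytic receptor, rose from 112 ± 21.6 to 168 ± 39.8 CPM (SD, n = 3; 0.58, adjusted p = 0.0291, edgeR), and this call was lost without WT replicate 2 (adjusted p = 0.103), without WT replicate 3 (adjusted p = 0.0886) and without Letmd1 KO replicate 2 (adjusted p = 0.0845) by edgeR.

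**Figure D5:**
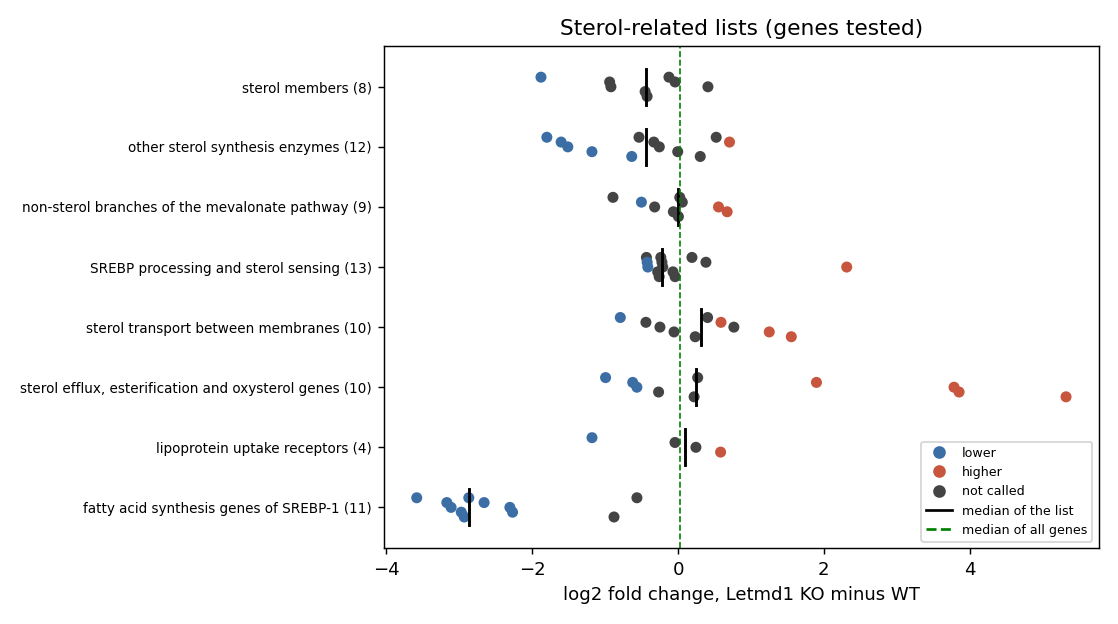
Log2 fold change (Letmd1 KO minus WT) of every tested gene of the 8 sterol-related lists, with the number tested in brackets, a black line at the median of each list and a green dashed line at the median of all genes tested. The sterol members center on -0.44 and the fatty acid synthesis genes on -2.87; the point farthest to the right is Soat2, whose WT libraries were under the floor, so its fitted value is no bound.

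The genes most like the members across the 6 mice were found by the Pearson correlation of log2 CPM with the mean standardized level of the 8 members. That mean was -0.54, 0.56 and 1.08 in WT BAT, and -0.33, 0.17 and -0.93 in Letmd1 KO BAT, so the genotypes overlapped. The closest genes were Chac2 (r = 0.983), Golga7 (r = 0.969), Ap2s1 (r = 0.968), Zscan26 (r = 0.967) and Arhgef1 (r = 0.963). These are the highest of all genes tested over only 6 mice that share libraries, and they are given as a description without a test. None of the 5 was called between the genotypes by edgeR, with log2 fold changes from -0.32 to -0.075 and levels from 3.76 to 36.0 CPM, of which Chac2 was the lowest expressed. Chac2 was called with quantile normalization and limma (-0.73, adjusted p = 0.0415).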

How the data were processed

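BAT RNA of 3 WT and 3 Letmd1 KO mice was made into QuantSeq 3′ libraries and read as single ends of 75 bases. The authors aligned reads with Bowtie2 (build mm10, per the submitters' processing notes), counted unique and multiple alignments with bedtools, and deposited raw read counts per gene, 1 file per mouse. Versions, annotation and strand use are not given in the sources used here. The quantile normalization named in the study is not in the deposited counts.

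Samples were grouped by the genotype in the labels. The members and lists were chosen with earlier results of these data known. Counts were tested in R 4.3.3 with edgeR 4.0.16 (TMM, default filter at 10 counts per library and 15 in all, quasi-likelihood test, Benjamini-Hochberg over 12995 rows, threshold 0.05), with limma 3.58.1 and DESeq2 1.42.0 as alternatives. Log2 CPM used a prior count of 2. Of 23282 rows, 5588 had no count and 35 symbols had more than 1 row. The steps were tested on simulated data. Every pair of mice in a genotype differed by more than counting error (chi-square divided by its degrees of freedom from 12.1 to 37.0). Mice with the same number did not deviate together (r = 0.069, -0.11 and -0.087 across genes), so they were not treated as pairs.

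Positions and overlaps came from GENCODE vM21 on GRCm38. The last 500 bases of transcripts were compared with blastn 2.17.0 (at least 75 bases and 95% identity), and promoter windows came from RefSeq on GRCm38.p6.

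Named genes are all members, the other sterol enzymes of the list (some items are not reported here), the called genes with the most positive and most negative log2 fold change of each further list, Insig2, Srebf1 and Scap, and the 5 genes most like the members. Others are marked as named after their values were seen. Alternatives were DESeq2, library sizes without TMM factors, limma after quantile normalization, no filter, a mean of at least 50 counts, the replicate number as a block, leaving out each mouse, and, chosen after seeing the data, leaving out both mice with the most muscle RNA.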

Additional observations from a re-analysis of the deposited data

How the results depend on the processing

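Depth (6669577 to 14574273 counts per mouse) limits genes at or under the floor of 3 counts, such as Soat2 in WT mice. Having 3 mice a genotype limits every interval given. The number of genes called, 5978, was 4842 to 5868 when 1 mouse was left out, 5599 with the replicate number as a block and 3889 without both mice with the most muscle RNA. With scaling by library size alone, 1368 genes were lower and 5899 higher, against 2896 and 3082 with TMM. The cause of these and of the following changes was not tested.

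Of the sterol members, 1 was called by the reported fit, 2 by DESeq2, 3 with no filter, 3 with the replicate block and 1 to 3 when 1 mouse was left out; the numbers are only labels, since mice with the same number did not deviate together, and the highest correlation of WT replicate 2 was with Letmd1 KO replicate 3 (r = 0.19). The block called Idi1 (-0.85, adjusted p = 0.0305) and Insig1 (-1.03, adjusted p = 0.0231) by edgeR. Leaving out 1 mouse gave 5 to 7 called other sterol enzymes, 1 to 3 non-sterol branch genes, 1 to 4 SREBP processing genes, 2 to 4 transport genes, 7 efflux and esterification genes in every case, 1 to 2 uptake receptors and 9 to 10 fatty acid synthesis genes. Without both mice with the most muscle RNA these lists had 4 other enzymes, 0 non-sterol branch genes (edgeR), 1 SREBP processing gene, 2 transport genes and 1 uptake receptor called. Library size alone called 5 non-sterol branch genes and 5 SREBP processing genes, all higher (against 1 lower and 2 higher, and 2 lower and 1 higher). Over all 12995 genes tested, this scaling gave 1368 lower and 5899 higher. It also moved the other enzymes from 5 lower and 1 higher to 4 and 3, transport genes from 1 and 3 to 0 and 6, efflux and esterification genes from 3 and 4 to 1 and 6, and uptake receptors from 1 and 1 to 1 and 2. A mean of at least 50 counts called 1 SREBP processing gene, and quantile normalization called 2 transport genes.

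The log2 fold change turned sign in the following cases, given as the new value. With library size alone, which moves the median of all genes to 0.45, these were Cyp51 (0.30), Srebf2 (0.38), Mvd (0.092), Ebp (0.42), Sc5d (0.16), Srebf1 (0.17), Scap (0.21), Tcp1 (0.10), Acat3 (0.12), Chac2 (0.097), Golga7 (0.30), Ap2s1 (0.21), Zscan26 (0.34) and Arhgef1 (0.19). With quantile normalization they were Hsd17b7 (-0.023), Ebp (0.15) and Srebf1 (0.080), and with a mean of at least 50 counts Srebf2 (0.013) and Ebp (0.049). Leaving out WT replicate 3 turned Cyp51 (0.20), Mvd (0.46), Sc5d (0.11) and Srebf1 (0.26), leaving out WT replicate 2 turned Srebf2 (0.036), leaving out Letmd1 KO replicate 3 turned Cyp51 (0.0094) and Srebf2 (0.058), and leaving out Letmd1 KO replicate 2 turned Ebp (0.00068). Over the fits that left out 1 mouse, the lowest and highest values were -0.39 and 0.20 for Cyp51, -0.18 and 0.058 for Srebf2, -0.75 and 0.46 for Mvd, -0.029 and 0.00068 for Ebp, -0.50 and 0.11 for Sc5d, and -0.49 and 0.26 for Srebf1. Without both mice with the most muscle RNA, Srebf2 was at 0.14.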
